A study of Mus musculus with 33 samples.

Results

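The genes described here are 48 mouse genes of mitosis and the G2/M transition, taken by name as a fixed list. Of these, 47 were measured, out of 18193 genes in all. Each was represented by the probe set that carried its symbol alone and had the highest mean over all columns of the deposited table. Ccnb1 had no probe set with a single symbol and is not described. RNA came from the livers of mice aged 12 months on a mixed background of FVB/NT, 129S1/Svlmj and C57BL/6NT. There were 7 wild-type livers (wt) and 5 livers of E2f3a knock-out mice (3aKO), both labelled normal. The 5 arrays of E2f1 knock-in mice (1KI) and the 4 of E2f3b knock-in mice (3bKI) came from hepatocellular carcinomas that arose spontaneously. Genotype and tumour therefore cannot be told apart in the knock-in groups. The locus and the control of the knock-in alleles, and whether replicates came from separate animals, are not given in the sources used here, so p-values measure the spread between these samples.

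The authors normalized the arrays in 2 runs. Normalization 1 held wt, 3aKO and 1KI, and normalization 2 held the same wt and 3aKO arrays with 3bKI. Levels are log2 values, and a difference of 1 is a 2-fold change. Because the 1KI and 3bKI values come from separate runs and share their control arrays, they are given side by side and were not tested against each other.

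In the mammalian cell cycle, Cdk1 with cyclins A and B drives entry into mitosis, Polo and Aurora kinases build the spindle, the checkpoint holds chromosomes until kinetochores are attached, and the anaphase-promoting complex then releases them. Most of these genes are transcribed late in the cycle. They are repressed in resting cells by the DREAM complex and activated by B-Myb, FoxM1 and NF-Y, through a promoter element called the cell cycle genes homology region (CHR) and through CCAAT boxes, while E2F factors are best known for the earlier G1/S genes. In adult liver most hepatocytes are not cycling, and these genes are known as markers of dividing cells.

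Promoter windows of 300 bases, 250 before and 50 after the start, were found for 39 of the 48 genes in the RefSeq table (GRCm38.p6). Some genes had more than 1 start, which gave 43 windows. The letters searched on both strands were TTTGAA and TTCGAA for the CHR, CCAAT for the CCAAT box, and TTTCGCGC, TTTGGCGC, TTTCCCGC and TTTGCCGC for an E2F site. A CHR stood in 31 of the 43 windows, or 72.1%, against 19.2% of all 32851 windows. CCAAT was present in 74.4% against 37.4%, and at least 2 copies of it in 51.2% against 11.7%. Both CCAAT and a CHR stood in 60.5% against 7.52%. The E2F letters were in 2.33% of the members' windows and 2.26% of all windows. These matches are descriptions of letters and not measured binding.

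The 4 windows below belong to the genes of largest mean tumour difference that hold a CHR, and they are shown because their levels in the tumours are described next. Birc5, which had the largest mean difference, holds no CHR in its window. Cdk1 lies at chr10:69352863-69353162 on the minus strand and Ccnb2 at chr9:70421505-70421804 on the minus strand. Ube2c lies at chr2:164769679-164769978 on the plus strand and Mki67 at chr7:135716330-135716629 on the minus strand. All are written 5′ to 3′ along the gene, and capitals mark the CHR, the CCAAT box (CCAAT or ATTGG) and, in Cdk1, the E2F letters.
Cdk1: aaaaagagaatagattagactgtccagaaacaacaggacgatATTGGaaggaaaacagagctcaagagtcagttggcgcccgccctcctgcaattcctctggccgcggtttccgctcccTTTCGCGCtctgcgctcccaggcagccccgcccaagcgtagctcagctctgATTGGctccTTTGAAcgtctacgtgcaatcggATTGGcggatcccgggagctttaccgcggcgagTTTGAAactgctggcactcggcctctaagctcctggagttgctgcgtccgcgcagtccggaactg
Ccnb2: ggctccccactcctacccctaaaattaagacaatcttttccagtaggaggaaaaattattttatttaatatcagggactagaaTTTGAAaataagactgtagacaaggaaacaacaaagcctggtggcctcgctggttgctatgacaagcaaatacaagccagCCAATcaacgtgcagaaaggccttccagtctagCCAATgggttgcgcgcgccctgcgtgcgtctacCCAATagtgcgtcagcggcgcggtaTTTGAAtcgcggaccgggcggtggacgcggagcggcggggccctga
Ube2c: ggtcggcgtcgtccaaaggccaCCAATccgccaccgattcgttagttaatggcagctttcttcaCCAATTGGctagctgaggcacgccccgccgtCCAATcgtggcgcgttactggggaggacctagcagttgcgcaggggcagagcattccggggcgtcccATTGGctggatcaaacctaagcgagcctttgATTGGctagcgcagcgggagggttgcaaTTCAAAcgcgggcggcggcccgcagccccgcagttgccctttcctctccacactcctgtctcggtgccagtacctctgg
Mki67: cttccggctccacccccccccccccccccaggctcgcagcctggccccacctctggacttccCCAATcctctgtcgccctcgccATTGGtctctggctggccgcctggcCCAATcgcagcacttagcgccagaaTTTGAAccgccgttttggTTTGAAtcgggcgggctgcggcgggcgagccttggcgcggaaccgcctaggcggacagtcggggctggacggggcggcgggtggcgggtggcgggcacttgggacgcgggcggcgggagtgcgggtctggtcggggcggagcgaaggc
In the Cdk1 window CHRs begin 71 and 15 bases before the start, with CCAAT letters at 208, 80 and 48 bases before it. The Cdk1 window also holds the E2F letters TTTCGCGC, 131 bases before the start. Ccnb2 has CCAAT letters 87, 54 and 21 bases before the start and a CHR 5 bases after it, with a further CHR 167 bases before. Ube2c holds a CHR 29 bases before the start and CCAAT letters at 6 places, of which a pair on opposite strands overlap. Mki67 has CHRs at 116 and 98 bases before the start, both nearer to it than its CCAAT letters at 188, 166 and 141 bases.

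In wild-type liver nearly all of these genes were dim: 46 of the 47 lay below the median gene of the array in both normalizations. The median level of the 47 genes was 4.74 to 5.17 across the wt arrays and 4.76 to 5.00 across the 3aKO arrays in normalization 1. The 1KI replicates 1 to 5 gave medians of 4.98, 5.31, 5.48, 5.96 and 5.36. Replicates 2 to 5 lay above every wt and 3aKO array, and replicate 1 lay within the range of wt. In normalization 2, wt gave 4.60 to 4.91 and 3aKO 4.70 to 4.82, and the 3bKI replicates 1 to 4 gave 4.88, 6.58, 5.60 and 4.91. Replicates 2 and 3 were far above the livers, and replicates 1 and 4 were close to the highest wt array. More dividing cells and more RNA per cell cannot be told apart in such bulk samples.

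**Figure D1:**
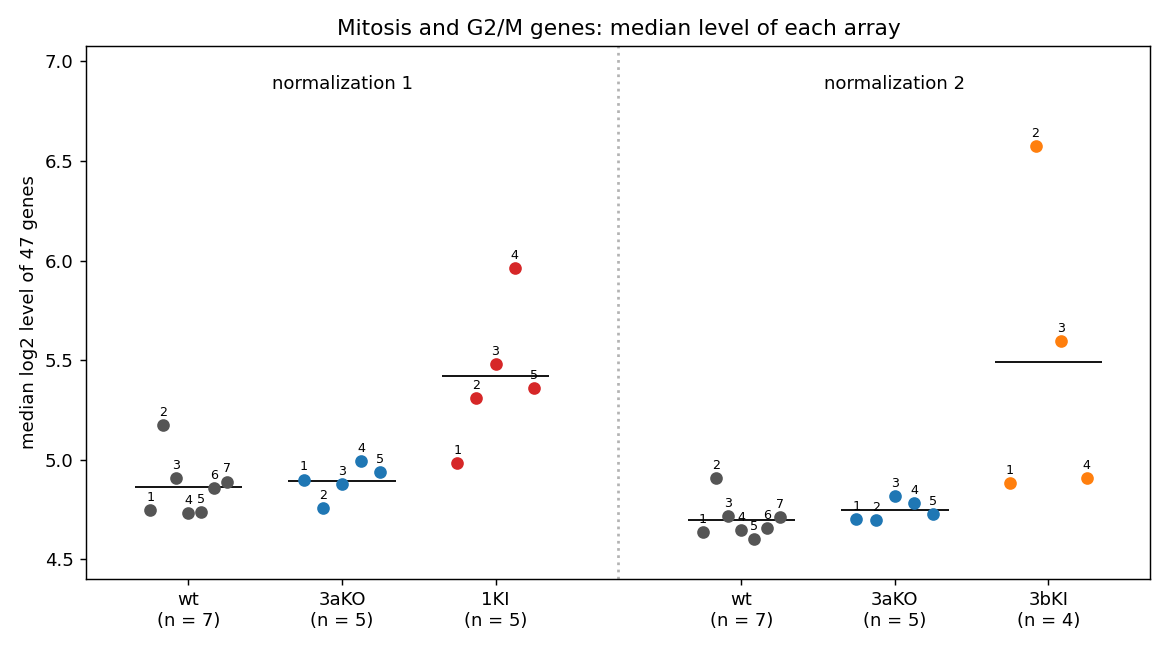
Median log2 level of the 47 mitosis and G2/M genes (y axis) in each array by group (x axis), with the replicate number beside each point and a bar at the group mean, separately for both normalizations. The 3bKI replicate 2 stands highest at 6.58, and 3bKI replicates 1 and 4 lie at 4.88 and 4.91, near the wt arrays.

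The tumours differed from each other gene by gene in the same way. Of the 47 genes, 7, 23, 34, 38 and 25 were above all wt arrays in 1KI replicates 1 to 5, where 10.5%, 12.0%, 18.4%, 23.6% and 12.7% of all genes were. In 3bKI replicates 1 to 4 the counts were 11, 43, 35 and 11, against 17.2%, 19.4%, 16.8% and 15.3% of all genes. Replicate 2 of 3bKI was the highest of the 16 arrays of its normalization for 41 genes. Replicate 4 of 1KI was the highest of 17 arrays for 25 genes, and replicate 3 for 8. The share of all genes was not taken for these counts of the highest array. Above all wt and 3aKO arrays were 42 members in 3bKI replicate 2, where 16.4% of all genes were. In 1KI replicates 4 and 3 there were 33 and 31 such members, where 20.0% and 15.4% of all genes were. The median SD of a gene was 0.16 in wt, 0.19 in 3aKO and 0.42 in 1KI in normalization 1, and 0.17, 0.18 and 0.89 in wt, 3aKO and 3bKI in normalization 2. The SD was over 2 times that of wt for 21 of the 47 genes in 1KI and 39 in 3bKI, against 15.5% and 11.1% of all genes.

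**Figure D2:**
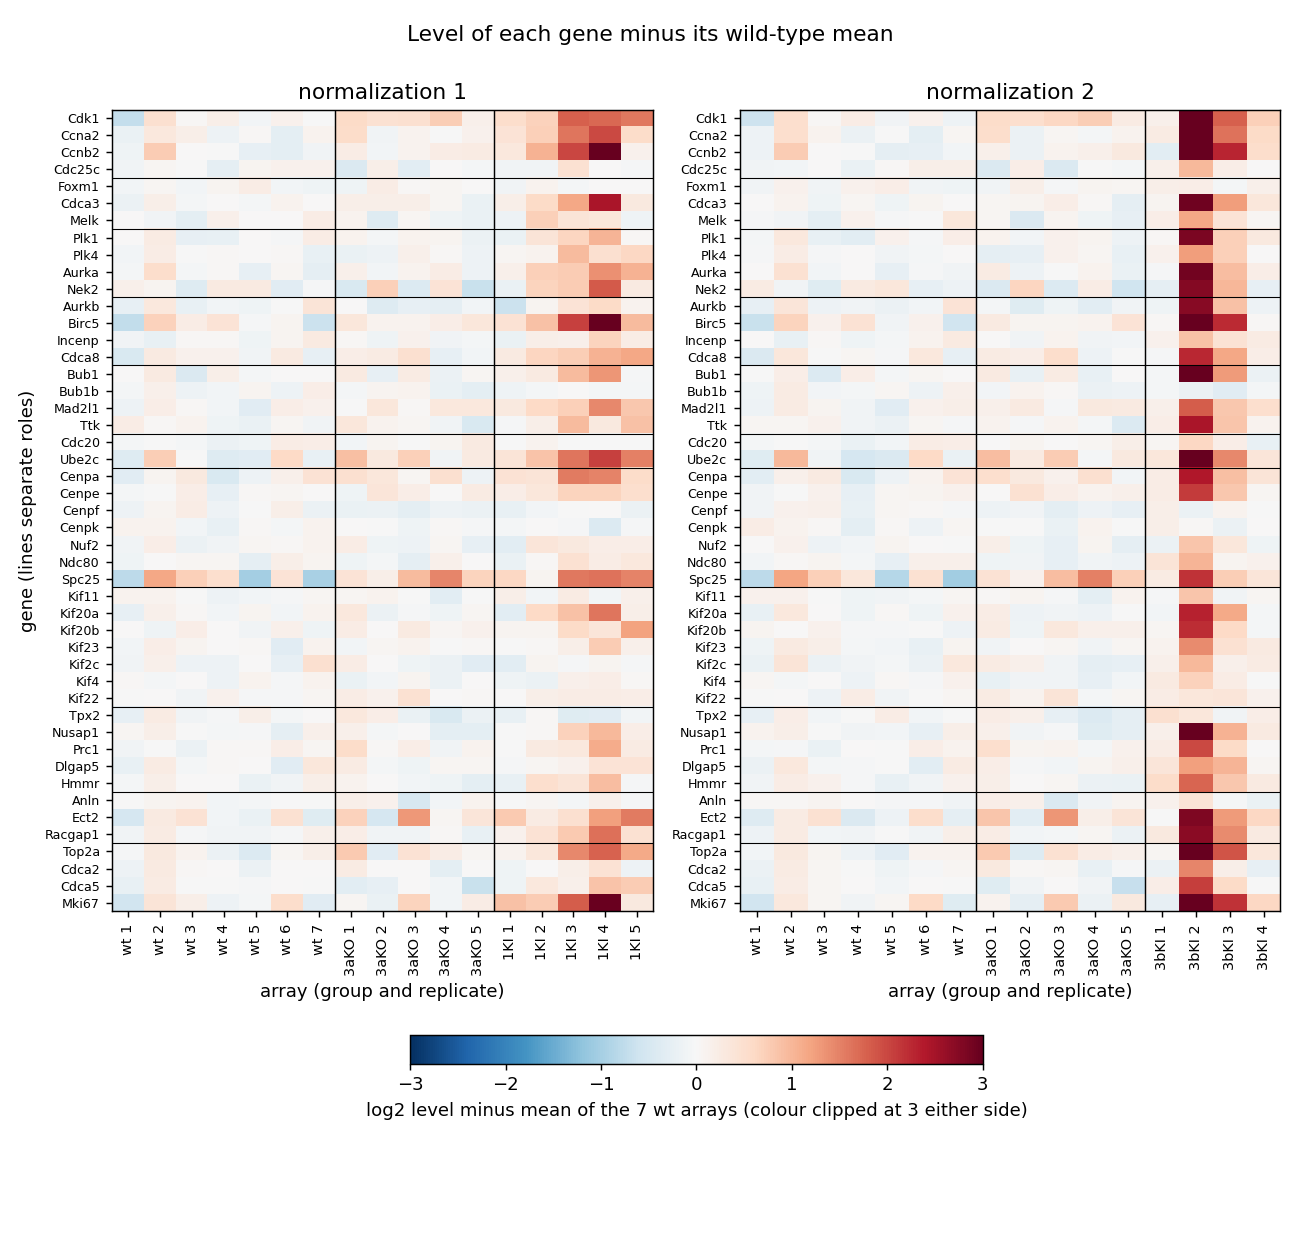
Log2 level of each of the 47 genes (rows, grouped by role) minus its mean over the 7 wt arrays, for each array (columns) in both normalizations, with the colour limited to 3 on either side. The 3bKI replicate 2 column is red for most rows, 1KI replicates 3 and 4 and 3bKI replicate 3 are red for many, and 3bKI replicates 1 and 4 are pale.

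Replicate 2 of 3bKI stood apart in sex-linked genes. It had an Xist level of 6.56, against 12.4 to 12.7 in the other 3bKI arrays, and its Y-linked genes averaged 3.16, so its sex was unclear. By the same genes the other 3bKI arrays were female, while wt held 3 female and 4 male arrays and 1KI held 2 female and 3 male. The 3′ minus 5′ difference of the actin control probe sets was 0.70 to 0.87 in 3bKI and 0.65 to 1.37 in wt. That of the Gapdh control probe sets was 0.141 to 0.181 in 3bKI, below all wt arrays (0.205 to 0.325), and 0.0667 to 0.234 in 1KI, overlapping wt (0.133 to 0.284). The part of sex and RNA quality in the results was not tested beyond the fits with a sex term.

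Against wt, 1KI tumours had a higher mean level for 41 of the 47 genes, where 43.3% of all genes were higher. The median difference was 0.39 against -0.03 over all genes. No member passed the test at an adjusted p under 0.05 (limma, Benjamini-Hochberg over all genes), where 0.242% of all genes did (0.209% higher and 0.033% lower). At an unadjusted p under 0.05, 26 members were higher and 0 lower, where 9.05% of all genes were higher and 10% lower. The lowest adjusted p was 0.064, for Cdk1. A difference of 2-fold or more was reached by 7 members, against 1.21% of all genes: Birc5, Ccnb2, Mki67, Ube2c, Cdk1, Spc25 and Ccna2. Without 1KI replicates 3 and 4 the median difference was 0.14 and 14 members had an unadjusted p under 0.05.

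Against wt, 3bKI tumours had a higher mean level for 46 of the 47 genes, where 53.1% of all genes were higher. The median difference was 0.79 against 0.01 over all genes. Again no member passed at an adjusted p under 0.05 (limma), where 2.07% of all genes did (1.09% higher and 0.978% lower). At an unadjusted p under 0.05, 31 members were higher and 0 lower, where 9.84% of all genes were higher and 10.9% lower. The lowest adjusted p was 0.0655, for Hmmr, the hyaluronan receptor that also binds spindle microtubules. At least 2-fold higher were 12 members, against 1.21% of all genes. Without 3bKI replicate 2 the median difference was 0.28, and without replicates 2 and 3, an alternative chosen after seeing the data, it was 0.13 with 3 members at an unadjusted p under 0.05.

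**Figure D3:**
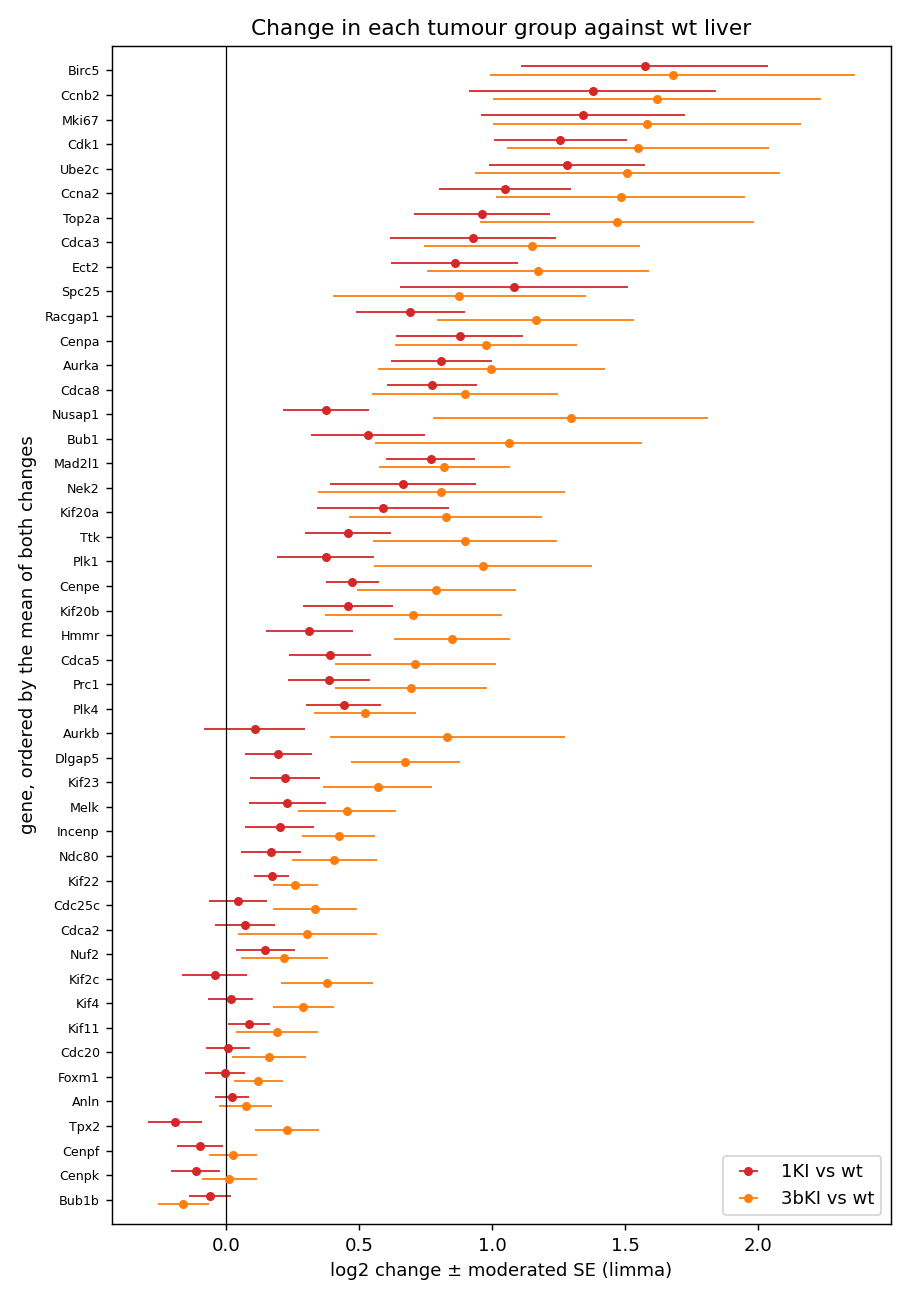
Log2 difference of the 1KI tumours (red) and the 3bKI tumours (orange) from wt liver (x axis) for each of the 47 genes (y axis, ordered by the mean of both), with bars of the limma standard error. Birc5, Ccnb2 and Mki67 lie at the top, between 1.34 and 1.68, and Bub1b lies at the bottom, below 0 in both groups; no difference passed an adjusted p under 0.05.

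The 3aKO livers were the knock-out without a tumour. Of the 47 genes, 25 were higher than in wt, where 50.5% of all genes were, and the median difference was 0.01. No member passed an adjusted p under 0.05, and 0% of all genes did. At an unadjusted p under 0.05, 1 member was higher (Cdk1, 0.48 ± 0.16) and 2 were lower (Cdca5, -0.26 ± 0.11, and Cenpf, -0.20 ± 0.08), with 3.62% of all genes higher and 3.84% lower. Cdca5, the cohesin protector sororin, and Cenpf, a late kinetochore protein, are named because of these values. The other probe set of Cdca5 gave 0.04 ± 0.08, and another of Cenpf gave -0.05 ± 0.10. The lowest adjusted p was 0.641.

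Set against 3aKO instead of wt, both tumour groups gave similar counts of higher members, but fewer at an unadjusted p under 0.05. For 1KI, 43 members were higher (45.3% of all genes) with a median of 0.35, and 18 were higher at an unadjusted p under 0.05 (6% of all genes). No member passed an adjusted p under 0.05, and 0% of all genes did. For 3bKI, 46 members were higher (54.7% of all genes) with a median of 0.63, and 18 were higher at an unadjusted p under 0.05 (13.4% of all genes). No member passed there either, although 9.18% of all genes did. The lowest adjusted p was 0.199 for 1KI, by Aurka, and 0.0552 for 3bKI, by Hmmr.

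Genes whose tumour arrays all lay above all control arrays were few. Against wt, 1KI had 4 of them (Cdk1, Ccna2, Cdca3 and Mad2l1), or 1.12% of all genes. Against wt, 3bKI had 2 (Hmmr and Racgap1), with 1.9% of all genes. Against 3aKO the count was 2 for 1KI (Birc5 and Cdca3; 1.45% of all genes). For 3bKI against 3aKO it was 7 (Hmmr, Kif4, Ndc80, Incenp, Racgap1, Kif23 and Nusap1; 6.03% of all genes).

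Among the cyclins, Cdk1 and its activator, the median difference from wt was 1.15 in 1KI and 1.52 in 3bKI, both the largest of the 11 roles. Cdk1, the kinase that starts mitosis, measured 6.73, 6.90, 7.997, 7.92 and 7.80 in 1KI replicates 1 to 5. It ranged from 5.50 to 6.68 in wt, with a median of 6.24, and was 6.80, 6.67, 6.70, 6.95 and 6.36 in 3aKO. All 1KI arrays were above all wt arrays, replicates 3 to 5 by more than 1, and 3 of them were above all 3aKO arrays. The difference from wt was 1.26 ± 0.25 (SE; adjusted p = 0.064, limma). In 3bKI replicates 1 to 4 it was 6.20, 9.61, 7.84 and 6.76, with 5.44 to 6.56 (median 6.08) in wt and 6.30 to 6.79 in 3aKO. Replicate 1 fell within the range of wt, and the difference was 1.55 ± 0.49 (adjusted p = 0.11).

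Ccna2 encodes cyclin A2, which serves S phase and early mitosis. It measured 5.92, 6.24, 7.12, 7.50 and 6.07 in 1KI, with 5.23 to 5.84 (median 5.56) in wt and 6.08, 5.404, 5.62, 5.50 and 5.66 in 3aKO. Every 1KI array was above every wt array, by little in replicates 1 and 5. The difference was 1.05 ± 0.25 (adjusted p = 0.101). The 3bKI tumours read 5.59, 8.81, 6.97 and 5.91, with 5.03 to 5.83 (median 5.32) in wt and 5.16 to 5.86 in 3aKO. Only replicate 1 overlapped with wt, and the difference was 1.48 ± 0.47 (adjusted p = 0.108).

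Ccnb2, cyclin B2, measured 5.10, 5.83, 6.79, 8.17 and 4.92 in 1KI, with 4.50 to 5.55 (median 4.69) in wt and 5.01, 4.71, 4.88, 5.00 and 5.02 in 3aKO. Replicate 4 was 3.39 above the wt mean, and replicates 1 and 5 overlapped with wt. Replicate 5, high for Cdk1, was thus near wt for the cyclin. Its 3bKI levels were 4.39, 8.69, 7.00 and 5.23, with 4.45 to 5.47 (median 4.62) in wt and 4.54 to 5.01 in 3aKO. Replicate 1 was below all wt arrays and replicate 2 was 3.99 above their mean. Replicate 4 lay inside the range of wt. Against wt, 1KI was higher by 1.38 ± 0.46 (adjusted p = 0.174), and 3bKI by 1.62 ± 0.62 (adjusted p = 0.165). Cdc25c, a phosphatase that activates Cdk1, was the smallest of the role, at 0.04 ± 0.11 and 0.33 ± 0.16.

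Among regulators of entry and of transcription, the medians were 0.23 in 1KI and 0.45 in 3bKI. Cdca3, an adaptor for the destruction of the mitotic inhibitor Wee1, measured 5.38, 5.78, 6.36, 7.66 and 5.50 in 1KI. In wt it was 5.03 to 5.38 (median 5.22) and in 3aKO 5.38, 5.38, 5.38, 5.27 and 5.02. All 1KI arrays were above wt and 3aKO, replicate 1 by less than 0.01. The 3bKI replicates measured 5.20, 8.04, 6.38 and 5.44, with 4.99 to 5.23 (median 5.12) in wt and 4.84 to 5.32 in 3aKO. Replicate 1 was the only overlap with wt. By the probe set used, the differences were 0.93 ± 0.31 (adjusted p = 0.174) and 1.15 ± 0.41 (adjusted p = 0.139). Foxm1, the transcription factor of late cell cycle genes, was near wt in both groups, at -0.005 ± 0.08 and 0.12 ± 0.09 by the probe set used.

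Among centrosome and polo kinases the medians were 0.55 in 1KI and 0.89 in 3bKI. Aurka, the Aurora kinase of spindle poles, was largest in both by the probe set used, at 0.81 ± 0.19 (adjusted p = 0.0964) and 1.00 ± 0.43 (adjusted p = 0.211). Its 1KI replicates read 4.75, 5.31, 5.36, 5.98 and 5.65 and its 3bKI replicates 4.42, 7.35, 5.38 and 4.64, with wt at 4.34 to 5.14 and 4.19 to 4.91. All 1KI arrays but replicate 1 were above wt, and 3bKI replicates 2 and 3 were. The smallest were Plk1, the polo kinase of mitotic entry, in 1KI (0.37 ± 0.18), and Plk4, the kinase of centriole duplication, in 3bKI (0.52 ± 0.19).

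The chromosomal passenger complex corrects faulty kinetochore attachments and had medians of 0.49 and 0.87. Birc5, its subunit survivin, measured 4.75, 5.21, 6.37, 7.88 and 5.28 in 1KI, with 3.59 to 5.02 (median 4.40) in wt and 4.66, 4.43, 4.44, 4.53 and 4.66 in 3aKO. Only replicate 1 overlapped with wt, and replicate 4 was 3.56 above the wt mean, an 11.8-fold difference. The 3bKI arrays gave 4.20, 8.56, 6.40 and 4.18, with 3.48 to 4.83 (median 4.28) in wt and 4.23 to 4.56 in 3aKO. Replicate 2 was 21.2-fold above the wt mean, and replicates 1 and 4 lay close to it. The differences were 1.57 ± 0.46 (adjusted p = 0.147) and 1.68 ± 0.69 (adjusted p = 0.193). Without 3bKI replicate 2 the second was 0.77, and without replicates 2 and 3 it was 0.03. Aurkb, the kinase of the complex, was smallest in 1KI (0.11 ± 0.19), and Incenp, its scaffold, in 3bKI (0.42 ± 0.14).

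The spindle checkpoint genes had medians of 0.50 and 0.86. Mad2l1, which inhibits the anaphase-promoting complex, was largest in 1KI at 0.77 ± 0.17 (adjusted p = 0.078), with 6.32, 6.64, 6.76, 7.47 and 6.84 against 5.69 to 6.25 in wt. Every 1KI array was above every wt array. Bub1, a checkpoint kinase, was largest in 3bKI by the probe set used, at 1.06 ± 0.50 (adjusted p = 0.252), with 2.92, 6.21, 4.25 and 2.81 against 2.58 to 3.19 in wt. Replicates 2 and 3 alone were above wt there. The related Bub1b lay below wt in both groups, at -0.06 ± 0.08 and -0.16 ± 0.10, by the probe set used.

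Of the anaphase-promoting complex, Ube2c, the enzyme that hands it ubiquitin, measured 5.78, 6.25, 7.01, 7.46 and 6.91 in 1KI. In wt it was 5.01 to 6.15 (median 5.18) and in 3aKO 6.31, 5.70, 6.11, 5.30 and 5.66. Replicate 1 overlapped with wt, and replicates 1 and 2 with 3aKO. The 3bKI tumours read 5.77, 9.31, 6.88 and 5.79, with 4.93 to 6.39 (median 5.24) in wt and 5.38 to 6.34 in 3aKO. Replicates 1 and 4 fell inside the range of wt. The differences were 1.28 ± 0.29 (adjusted p = 0.0912) and 1.51 ± 0.57 (adjusted p = 0.165). Cdc20, an activator of the complex, was flat by the probe set used, at 0.01 ± 0.08 and 0.16 ± 0.14.

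Kinetochore and centromere genes had medians of 0.17 and 0.41. Spc25, of the Ndc80 complex that holds microtubules, measured 7.02, 6.47, 7.97, 8.02 and 7.87 in 1KI. In wt it spread from 5.36 to 7.55 (median 6.79), the widest of all members, and in 3aKO it was 6.79, 6.56, 7.35, 7.85 and 7.05. Replicates 3 to 5 were above wt, and 1 and 2 were inside its range. Its 3bKI levels were 6.51, 8.42, 7.01 and 6.62, with 5.21 to 7.44 (median 6.61) in wt and 6.40 to 7.76 in 3aKO. Only replicate 2 lay above wt. By the probe set used, the differences were 1.08 ± 0.43 (adjusted p = 0.208) and 0.88 ± 0.48 (adjusted p = 0.318), and 3aKO itself lay 0.73 ± 0.39 above wt (adjusted p = 0.695). In wt of normalization 2 the female arrays read 6.71 to 7.44 and the male arrays 5.21 to 6.61. With a sex term, in a fit that leaves out 3bKI replicate 2, the 3bKI difference was -0.33.

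Cenpa, the histone H3 variant of centromeres, measured 6.63, 6.59, 7.78, 7.69 and 6.75 in 1KI, with 5.75 to 6.65 (median 6.28) in wt and 6.70, 6.54, 6.27, 6.69 and 6.04 in 3aKO. Replicates 3 to 5 were above wt. The 3bKI replicates measured 6.41, 8.58, 7.09 and 6.57, with 5.73 to 6.59 (median 6.28) in wt and 6.11 to 6.70 in 3aKO. Replicates 2 and 3 were above wt. By the probe set used, the differences were 0.88 ± 0.24 (adjusted p = 0.132) and 0.98 ± 0.34 (adjusted p = 0.136). Cenpk, of the inner kinetochore, was the smallest in both groups, at -0.11 ± 0.09 and 0.01 ± 0.10.

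The mitotic kinesins, motors that move along spindle microtubules, had medians of 0.17 and 0.38. Kif20a, which acts in cytokinesis, was the largest in both groups at 0.59 ± 0.25 (adjusted p = 0.23) and 0.83 ± 0.36 (adjusted p = 0.222). The smallest were Kif2c, which depolymerises microtubules, in 1KI (-0.04 ± 0.12), and Kif11, which pushes spindle poles apart, in 3bKI (0.19 ± 0.15).

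Spindle proteins had medians of 0.31 and 0.70. Prc1, which bundles the central spindle, was largest in 1KI at 0.39 ± 0.15 (adjusted p = 0.211). Nusap1, a microtubule stabiliser near chromosomes, was largest in 3bKI by the probe set used, at 1.30 ± 0.52 (adjusted p = 0.183), with 4.71, 8.23, 5.60 and 4.82 against 4.29 to 4.72 in wt. Replicates 2 to 4 were above wt, the last narrowly. Tpx2, which activates Aurora A, was the smallest in both by the probe set used, at -0.19 ± 0.10 and 0.23 ± 0.12. Hmmr, named for its low adjusted p, read 4.88, 6.07, 5.12 and 4.60 in 3bKI with 4.10 to 4.53 in wt by the probe set used. No array overlapped, and its difference was 0.85 ± 0.22.

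Cytokinesis genes had medians of 0.69 and 1.16. Ect2, the exchange factor that activates RhoA at the cleavage furrow, measured 4.30, 3.77, 4.00, 4.75 and 5.09 in 1KI. In wt it was 3.02 to 3.97 (median 3.44) and in 3aKO 4.22, 3.02, 4.83, 3.57 and 3.89. Replicate 2 alone overlapped with wt, and only replicate 5 was above all 3aKO arrays. The 3bKI arrays gave 3.25, 6.05, 4.54 and 3.87, with 2.82 to 3.78 (median 3.11) in wt and 2.93 to 4.57 in 3aKO. Replicate 1 lay within wt. The differences were 0.86 ± 0.24 (adjusted p = 0.134) and 1.17 ± 0.42 (adjusted p = 0.142).

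Racgap1, a subunit of centralspindlin, measured 4.82, 5.13, 5.48, 6.34 and 5.14 in 1KI, with 4.58 to 4.94 (median 4.65) in wt and 4.90, 4.58, 4.58, 4.72 and 4.48 in 3aKO. Replicate 1 was within the range of both. The 3bKI tumours read 4.72, 7.14, 5.84 and 4.69, with 4.27 to 4.68 (median 4.35) in wt and 4.25 to 4.65 in 3aKO. All 4 arrays were above wt and 3aKO, replicates 1 and 4 narrowly. By the probe set used, the differences were 0.69 ± 0.21 (adjusted p = 0.147) and 1.16 ± 0.37 (adjusted p = 0.11). Anln, which binds actin at the furrow, was smallest in both by the probe set used, at 0.02 ± 0.06 and 0.07 ± 0.10.

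The genes of chromosome structure had medians of 0.68 and 1.09. Mki67 encodes Ki-67, which coats mitotic chromosomes and is the usual stain for dividing cells. It measured 5.70, 5.61, 6.64, 7.80 and 5.14 in 1KI, with 4.27 to 5.37 (median 4.78) in wt and 4.89, 4.63, 5.50, 4.76 and 5.07 in 3aKO. Replicate 5 alone overlapped with wt. Its 3bKI levels were 4.30, 8.33, 6.71 and 5.16, with 3.97 to 5.13 (median 4.60) in wt and 4.28 to 5.32 in 3aKO. Replicate 1 lay within wt, replicate 4 just above it and replicates 2 and 3 far above. The differences were 1.34 ± 0.38 (adjusted p = 0.14) and 1.58 ± 0.58 (adjusted p = 0.15).

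Top2a, the topoisomerase that untangles sister chromatids, measured 4.98, 5.22, 6.33, 6.66 and 6.03 in 1KI, with 4.48 to 5.17 (median 4.93) in wt and 5.67, 4.53, 5.31, 5.10 and 4.94 in 3aKO. Replicates 3 to 5 were well above wt and replicate 2 narrowly. The 3bKI replicates measured 4.61, 8.16, 6.45 and 4.91, with 4.22 to 4.85 (median 4.64) in wt and 4.18 to 5.35 in 3aKO. Replicates 2 and 3 were far above wt and replicate 4 narrowly. By the probe set used, the differences were 0.96 ± 0.26 (adjusted p = 0.125) and 1.47 ± 0.52 (adjusted p = 0.138). Cdca2, which recruits a phosphatase to chromosomes, was the smallest, at 0.07 ± 0.11 and 0.31 ± 0.26.

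**Figure D4:**
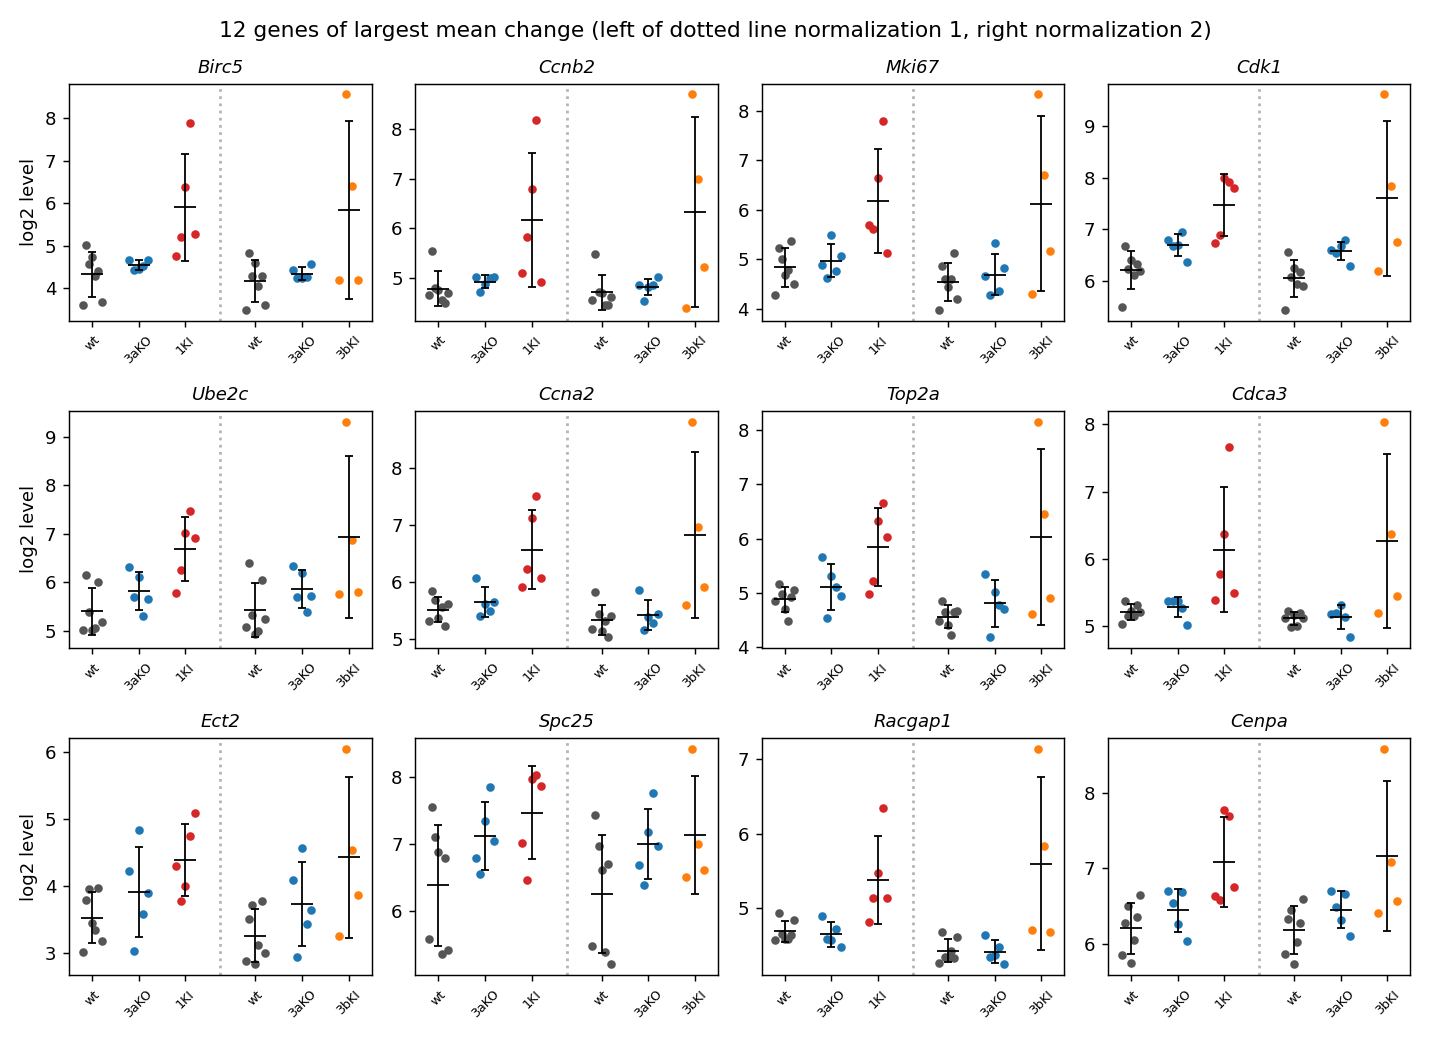
Log2 level (y axis) in every array of the 12 genes of largest mean difference in the tumour groups, with each panel split at the dotted line into normalization 1 (wt, 3aKO, 1KI) and normalization 2 (wt, 3aKO, 3bKI); bars are the group mean and SD. In each panel a single 3bKI array, replicate 2, stands highest, at 9.61 for Cdk1 and 8.56 for Birc5.

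Across these 12 genes the arrays at the top carried much of the difference. Without 1KI replicate 4 their differences from wt were 0.45 (Racgap1) to 1.14 (Cdk1), and without replicates 3 and 4 they were 0.34 (Racgap1) to 0.93 (Cdk1). Without 3bKI replicate 2 they were 0.45 (Spc25) to 0.88 (Cdk1). Without 3bKI replicates 2 and 3 they were 0.03 (Birc5) to 0.43 (Cdk1). Replicate 5 of 1KI was high for a subset only: it was over 1 above the wt mean for 8 of the 47 genes, among them Cdk1 (1.59), Ect2 (1.57), Ube2c (1.51) and Spc25 (1.48), while Ccnb2 (0.14) and Mki67 (0.30) were close to it.

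For many genes the value depended on the choice of probe set, by the rule that of the highest mean. Of the 34 members with several probe sets, another gave a difference from wt lower by more than 0.5 for 8 in 1KI and 14 in 3bKI, and higher by more than 0.5 for 5 in 1KI and 6 in 3bKI.

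The lower readings touch genes described above as high, including 5 of the 12 given array by array. For Top2a the other probe sets gave -0.08 ± 0.11 and -0.08 ± 0.08 in 1KI, where the one used gave 0.96. In 3bKI they gave -0.01 ± 0.10 and 0.12 ± 0.10, where the one used gave 1.47. These other values lay close to 0 on either side. Cdca3 had -0.13 ± 0.08 and -0.18 ± 0.10 in 1KI and 0.17 ± 0.08 and 0.07 ± 0.09 in 3bKI by its other probe sets. Cenpa had -0.31 ± 0.21 and 0.18 ± 0.12 in 1KI and 0.05 ± 0.23 and 0.16 ± 0.16 in 3bKI. Spc25 was 0.05 ± 0.14 and 0.17 ± 0.14 by its other probe set. Racgap1 differed among its own: one gave 0.66 ± 0.21 and 1.08 ± 0.35, close to the values above, and the dimmest -0.05 ± 0.07 and 0.26 ± 0.08. Outside those 12, among others, the other probe set of Aurka gave -0.02 ± 0.10 in 1KI and 0.11 ± 0.11 in 3bKI, and that of Nusap1 gave 0.07 ± 0.12 in 3bKI. The other probe set of Bub1 gave 0.02 ± 0.09 in 1KI and 0.08 ± 0.11 in 3bKI. Hmmr has 5 probe sets, and those not used gave 0.17 to 0.75 in 3bKI. Of the 12, 6 have a single probe set (Birc5, Ccnb2, Mki67, Cdk1, Ube2c and Ect2).

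The higher readings touch genes described as flat. Cdc20 was 0.01 by the probe set used and 1.32 ± 0.31 by another in 1KI, and 0.16 and 1.71 ± 0.60 in 3bKI. That other probe set read 4.91, 6.66, 5.80, 7.19 and 5.54 in 1KI with 4.40 to 5.03 in wt, and 4.66, 8.87, 6.48 and 4.90 in 3bKI with 4.27 to 4.87 in wt. Both of these are of the array's x type, whose probes may also match other transcripts. The remaining Cdc20 probe set is not of that type, and it gave 0.97 ± 0.24 in 1KI and 1.25 ± 0.46 in 3bKI. In 1KI, other probe sets gave 0.48 ± 0.13 for Bub1b, 0.59 ± 0.17 for Tpx2, 0.49 ± 0.31 for Cenpf, 0.56 ± 0.18 for Anln and 0.30 ± 0.15 for Kif11. In 3bKI, other probe sets gave 0.93 ± 0.40 for Bub1b, 0.83 ± 0.32 for Tpx2, 1.23 ± 0.42 for Cenpf, 1.09 ± 0.42 for Anln and 0.74 ± 0.21 for Kif11. None of these 6 genes passed an adjusted p under 0.05. High and flat values alike are therefore values of a probe set, and not settled levels of the gene, wherever the probe sets differ.

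When every probe set was tested alone, Plk4 passed in 3bKI by another probe set, by 0.89 ± 0.20 over wt (adjusted p = 0.0468). There 291 of the 34945 probe sets with 1 symbol were called higher. By the probe set used, Plk4 had adjusted p values of 0.0599 to 0.828 over the other alternatives in 3bKI against wt. Plk4 passed by that other probe set against 3aKO as well (0.79 ± 0.21), and so did a probe set of Dlgap5, a spindle protein named for this call (0.58 ± 0.14). Against 3aKO, 914 of the 34945 probe sets were called higher in 3bKI.

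**Figure D5:**
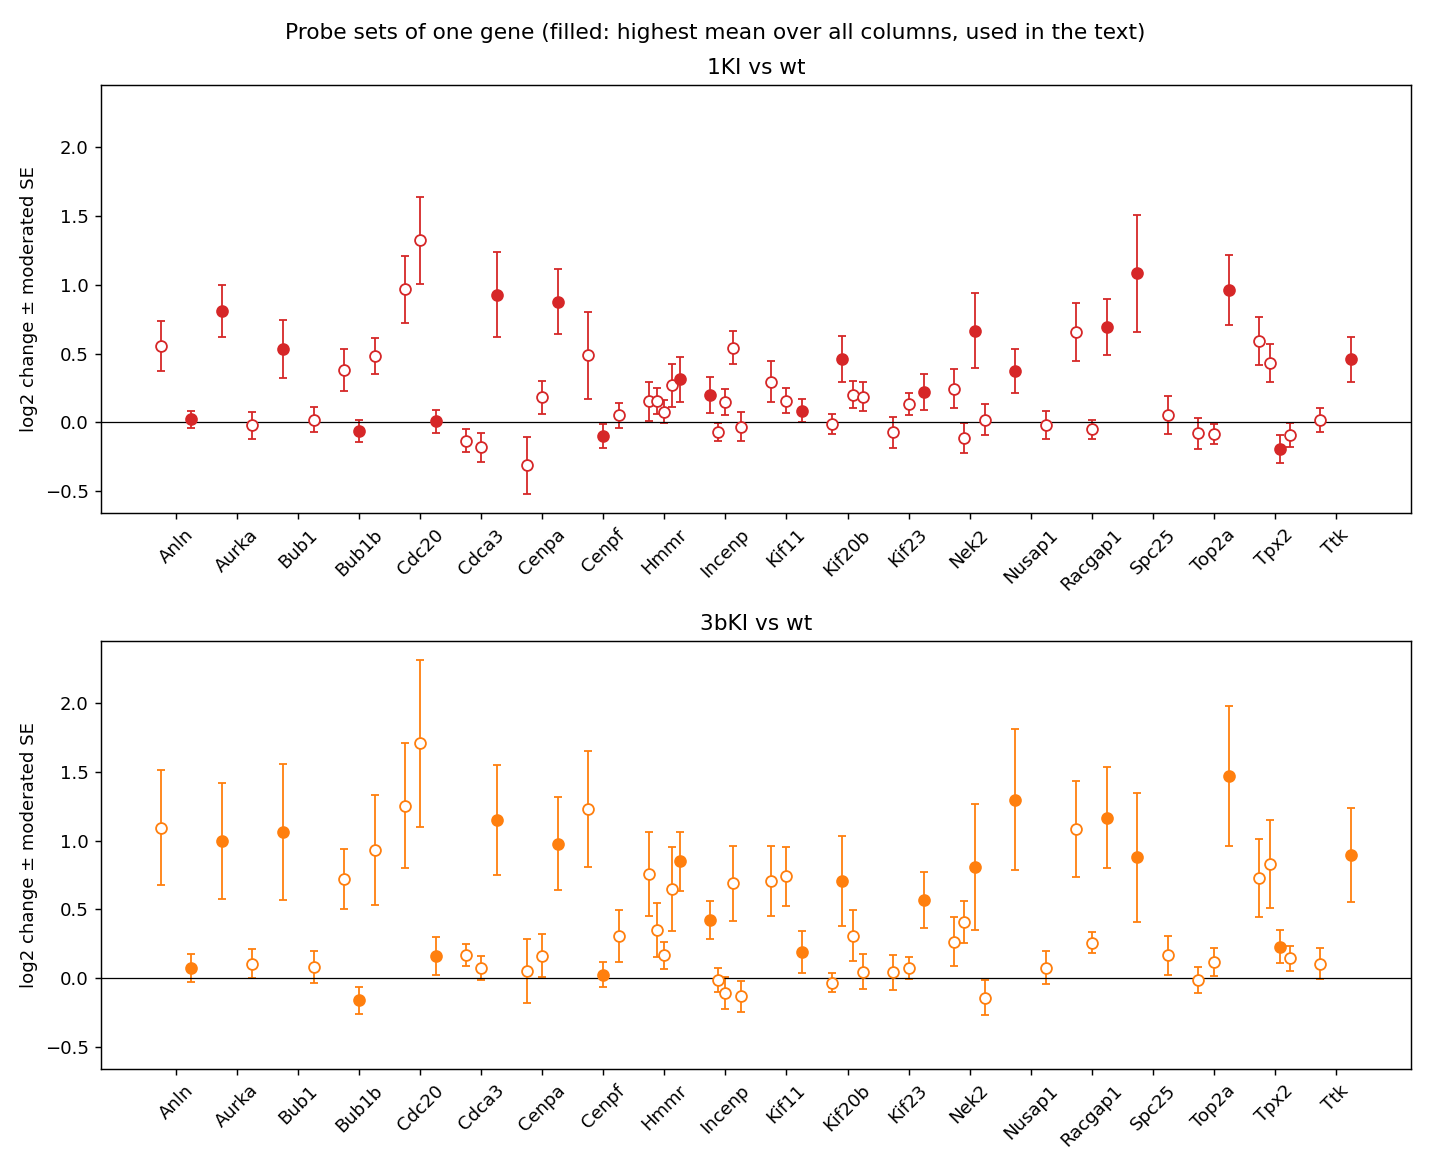
Log2 difference from wt with its limma standard error (y axis) for every probe set of the 20 genes (x axis) that had a probe set more than 0.5 above or below the one used in either comparison, in 1KI (top) and 3bKI (bottom); filled points are the probe sets used in the text. For 14 of the genes, such as Top2a, it is an open point that lies lower, and for 6, such as Cdc20, one that lies higher.

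A wider list of 89 other G2 and mitosis genes, of which 87 were measured, was shifted less. Its median difference was 0.13 in 1KI and 0.22 in 3bKI against wt, with 67 and 68 genes above 0, where 43.3% and 53.1% of all genes were. In 1KI, Smc4, a condensin subunit, rose by 0.73 ± 0.13 (adjusted p = 0.0412, limma). It was the only gene of the list to pass, where 0.209% of all genes were called higher and 0.033% lower. It read 7.86, 7.76, 8.31, 8.31 and 8.34 with 7.14 to 7.60 in wt, so every array was higher. In 3bKI against wt, Espl1, the protease separase, rose by 0.59 ± 0.12 (adjusted p = 0.0364), with 4.71, 5.21, 4.87 and 4.56 against 4.10 to 4.56. Rbl2, the pocket protein p130 of the DREAM complex, fell by 0.77 ± 0.13 (adjusted p = 0.0206). It read 8.25, 7.65, 7.78 and 7.97, all below the wt range of 8.47 to 9.10. Espl1 was the 1 gene of the list called higher in 3bKI and Rbl2 the 1 called lower. Of all genes, 1.09% were called higher and 0.978% lower there.

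Against 3aKO, 5 genes of the wider list rose in 3bKI and 5 fell, where 2.92% and 6.27% of all genes did. Pttg1, the separase inhibitor securin, rose by 0.52 ± 0.09 (adjusted p = 0.0159), and Psrc1, Gtse1, Cenpm and Ube2s rose by 0.36, 0.34, 0.66 and 0.76. Rbl2 fell by 0.94 ± 0.13 (adjusted p = 0.00938), and Cks2, Smc3, Anapc1 and Cdc26 fell by 0.43, 0.48, 0.32 and 0.38. In 1KI against 3aKO none passed and the lowest adjusted p values were those of Smc4 (0.59, 0.141), Cks1b (0.96, 0.225) and Cks2 (-0.45, 0.231), both of the latter partners of Cdk1. In 3aKO against wt they were those of Cks2 (0.48), Cenpw (0.52) and Cenpl (0.33), at adjusted p of 0.641 to 0.643. Counts at an unadjusted p under 0.05 were 19 higher and 4 lower for the former, with 6% and 8.01% of all genes, and 7 and 0 for the latter, with 3.62% and 3.84%.

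The levels of other cell types were read beside these results. Summed hepatocyte markers, on the log2 scale, were 16.7 to 17.01 in 1KI with 16.9 to 17.04 in wt, and 3 of the 7 measured were higher in 1KI. In 3bKI the sum was at most 16.83, below every wt array (at least 16.85). There 1 of 7 was higher than in wt and their median difference was -0.26, and none passed an adjusted p under 0.05. Stellate cell markers summed to 11.4 to 11.9 in 1KI and 10.8 to 11.1 in wt, and to 11.3 to 11.7 in 3bKI and 10.7 to 10.9 in wt. Of the 7 stellate markers, 6 were higher than in wt in 1KI and 7 were in 3bKI. Called higher in 1KI (adjusted p under 0.05, limma) was Pdgfrb, by 0.76 ± 0.12, where 0.209% of all genes were. In 3bKI Col1a1 and Col3a1 were called higher, by 1.21 ± 0.22 and 1.71 ± 0.33, where 1.09% of all genes were. Of the 8 macrophage markers, 1 was higher than in wt in 1KI and 7 were in 3bKI. In 3bKI 1 was called lower (adjusted p under 0.05, limma), as were 0.978% of all genes. Macrophage markers summed to 11.6 and 11.7 in 1KI replicates 3 and 4, below the 12.5 to 13.5 of wt, and to 12.6 and 14.2 in 3bKI replicates 2 and 3, with 12.4 to 13.4 in wt. Replicate 3 of 3bKI was also the highest of its normalization for summed neutrophil, T and NK cell, and B cell markers (10.04, 9.66 and 10.07). Their part in the levels of the mitosis genes was not tested.

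The targeted genes were read in every array. E2f1 was 6.15, 6.16, 6.47, 5.83 and 6.36 in 1KI, 5.84 to 6.22 in wt and 5.86 to 6.18 in 3aKO, so that the groups overlapped. In normalization 2 it read 6.00, 5.87, 6.35 and 6.16 in 3bKI and 5.62 to 6.07 in wt. Its difference from wt was 0.17 ± 0.11 in 1KI (adjusted p = 0.389), 0.24 ± 0.11 in 3bKI (adjusted p = 0.263) and 0.03 ± 0.09 in 3aKO (adjusted p = 0.953). E2f3 was 7.14, 7.23, 7.81, 7.60 and 7.28 in 1KI, all above the 6.59 to 7.03 of wt, and 6.43, 6.88, 6.69, 6.79 and 6.42 in 3aKO, which overlapped with wt. The 3bKI arrays gave 6.58, 7.01, 6.95 and 6.74 and wt 6.42 to 6.93 in normalization 2. The E2f3 difference was 0.57 ± 0.13 in 1KI (adjusted p = 0.078), -0.19 ± 0.11 in 3aKO (adjusted p = 0.7) and 0.10 ± 0.12 in 3bKI (adjusted p = 0.66). Where these probe sets lie relative to the altered parts of the alleles was not examined, so they are no check of the labels.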

How the data were processed

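Total RNA (5 ug, Trizol) of 21 mouse livers and liver tumours was labelled and hybridised to Affymetrix arrays, per the labels' protocols. The authors deposited log2 levels for each probe set from 2 separate normalizations, per the labels. The summarisation and normalization method is not given in the sources used here. The table has 33 columns, since the 12 wt and 3aKO arrays appear in both normalizations. Of 45101 probe sets, 64 were controls, 34945 carried 1 gene symbol in the platform annotation, 932 several and 9160 none.

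Each gene was represented by its single-symbol probe set of highest mean, which left 18193 genes. The comparisons (3aKO against wt; each tumour group against wt and against 3aKO) were fitted within a normalization on the log2 values with limma 3.58.1 (lmFit and eBayes, R 4.3.3) on the 2 groups compared, with Benjamini-Hochberg adjustment over all genes and a threshold of 0.05. The test was tried on simulated data first. Promoter letters were searched, values joined and figures drawn with Python 3.11.15, pandas 2.3.3 and matplotlib 3.10.9. Genes were named by role (largest and smallest tumour difference in each), the 12 of largest mean tumour difference were given by array, and in the wider list those that passed or the 3 of lowest p were named. Members, lists and rules were chosen with earlier results of these data known. Replicate numbers of the labels were tested as pairs: the deviations of same-numbered arrays correlated at -0.47 to 0.44, so the numbers were not taken to pair samples. Alternatives covered normalization, centring, a filter on the 40% dimmest genes, the probe sets, the groups in the fit, eBayes, array weights, sex, pairing and each array left out. The number of arrays limits the precision.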

Additional observations from a re-analysis of the deposited data

Results flagged for a closer look

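Among groups of 4 to 10 arrays, 132 sets of levels (the named genes and the median of the 47 genes) were examined for an array far from the rest of its group, and 8 were found. Chance alone gives about 1 in 20 such sets, so the number found is near what chance gives. In wt replicate 2, Ccnb2 was 5.55 with the next array at 4.79, Aurka was 5.14 with the next at 4.66, and the median of the 47 genes was 5.17 with the next at 4.91. In 1KI, Cdc25c was 4.62 in replicate 3 with the next at 4.16, Cdc20 was 6.19 in replicate 2 with the next at 6.07, and Cenpk was 4.18 in replicate 4 with the next at 4.54. In 3bKI, Kif2c was 6.73 in replicate 2 with the next at 6.02, and Foxm1 was 6.33 in replicate 3 with the next at 6.54.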

How the results depend on the processing

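Under no alternative did a member pass an adjusted p under 0.05 in 3aKO against wt or in 1KI against 3aKO. With all 3 groups of a normalization in the fit, 7 members passed in 1KI against wt (Aurka, Ccna2, Cdca8, Cdk1, Cenpe, Mad2l1 and Ube2c), 6 in 3bKI against wt and 7 in 3bKI against 3aKO, where 1.21%, 2.49% and 4.27% of all genes were called higher. With every probe set tested, 1 passed in 3bKI against wt (Plk4) and 2 in 3bKI against 3aKO. Of the 34945 probe sets, 291 and 914 were called higher there. Leaving out each array in turn gave 0 to 6 members in 1KI against wt (6 without 1KI replicate 1 and 1 without replicate 2, with 0.308% and 0.269% of all genes), 0 to 5 in 3bKI against wt (5 without 3bKI replicate 1, with 1.91%) and 0 to 3 in 3bKI against 3aKO (1 without 3bKI replicate 1, 1 without replicate 2 and 3 without replicate 4, with 2.8%, 1.68% and 1.28%). The median difference of 1KI from wt was 0.77 over the 13 members left by the filter on dim genes. That filter used the mean over all columns, tumour arrays included, so members high in the tumours could pass it on those values. This median, the highest of the 1KI alternatives, is therefore no support for a larger shift. Over the alternatives the medians ran from 0.14 to 0.77 in 1KI against wt, 0.13 to 0.96 in 3bKI against wt, 0.15 to 0.49 in 1KI against 3aKO, 0.06 to 0.81 in 3bKI against 3aKO and -0.02 to 0.13 in 3aKO against wt. Without 1KI replicate 4 the median against wt was 0.23. Without 3bKI replicate 2 it was 0.28 against wt and 0.30 against 3aKO. The fit with a sex term drops that array, since its sex was unclear, and gave 0.25 and 0.30. In 3bKI against wt that fit gave -0.33 for Spc25, 0.22 for Ect2 and 0.23 for Ube2c. Of the 12 genes given by array, Spc25 was the only 1 to change sign against wt under an alternative.

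With the replicate number as a block, no member passed in any comparison, as in the fits without it. The medians stayed close to those fits. They were 0.40 with the block and 0.39 without it in 1KI against wt, and 0.77 and 0.79 in 3bKI against wt. In 3bKI against 3aKO they were 0.62 and 0.63, in 1KI against 3aKO 0.35 and 0.35, and in 3aKO against wt 0.01 and 0.01. Of 3218 values of single members under the alternatives, 23 newly passed, and 149 changed sign where neither value passed. Counts over all genes moved more: those higher in 1KI against wt were 38 in the fits reported and 2 without wt replicate 4, 1 with the block and 220 with all 3 groups. Those in 3bKI against wt were 199 and ran from 33 without 3bKI replicate 3 to 453 with all 3 groups. In 3bKI against 3aKO, 531 were higher and 1140 lower, and 19 and 31 with the block. Centring each array on its median gave 385 higher and 1433 lower there, and 139 and 188 in place of 199 and 178 in 3bKI against wt. The cause of these shifts was not tested.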
